A study of Rattus norvegicus with 15 samples.

Results

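The mitochondrial carriers of the Slc25 family and the uncoupling proteins were described in primary rat hepatocytes exposed to flutamide. Members were all genes whose symbol on the array platform starts with Slc25a, together with Ucp1, Ucp2 and Ucp3. Only probe sets with a single gene symbol were used, and a gene with several probe sets was represented by the one of highest mean over all arrays. This gave 39 genes of 14506 tested, on 44 probe sets. Slc25a12, Slc25a13 and 1 further carrier are not analysed here.

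Freshly isolated rat hepatocytes, the parenchymal cells of the liver, were cultured in microfluidic biochips, miniature chambers through which medium is pumped. After a day of adhesion they received the solvent DMSO (5 arrays), 10 µM flutamide (6 arrays) or 100 µM flutamide (4 arrays) for 24 h, with 1 array for each biochip. Flutamide is a nonsteroidal antiandrogen whose use is limited by liver injury, and mitochondrial toxicity is among the mechanisms studied for it. The titles number the biochips 10 to 16 and 20 to 27, and each of these number runs, called run 1 (7 arrays) and run 2 (8 arrays), held all 3 groups: 2 DMSO, 3 10 µM and 2 100 µM arrays in run 1, and 3, 3 and 2 in run 2. The labels do not say what the run stands for, nor the strain, sex or age of the rats, nor whether biochips held cells of separate animals. P-values therefore measure only the spread between these biochips, which may be technical.

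Slc25 carriers are proteins of the inner mitochondrial membrane that pass nucleotides, phosphate, metabolites, amino acids and cofactors between the cytosol and the matrix, mostly by exchange. They are built from repeated modules that each span the membrane with a pair of helices. In hepatocytes they link mitochondria to the urea cycle, gluconeogenesis, fatty acid synthesis and the export of ATP.

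Values are log2 expression values, so a difference of 1 is a 2-fold difference. Differences were tested with limma over all 14506 genes with group and run in the model, and genes with an adjusted p (Benjamini-Hochberg) under 0.05 were called. Probe sets differ in how brightly they bind, so levels of different genes are given as descriptions and are not ranked. In these bulk samples, fewer cells of a type and less RNA per cell cannot be told apart.

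The arrays resembled each other, with pairwise correlations over genes from 0.955 to 0.994. The 10 µM array of biochip 23 stood farthest apart (median correlation 0.963 with the others, limma quality weight 0.205), followed by 100 µM biochip 15 (weight 0.427) and 10 µM biochip 24 (weight 0.549), and changes that moved most without these 3 arrays are also given without them. Leaving out all 3 turned the sign of 7 members at 10 µM and 10 at 100 µM, whose changes with all arrays were at most 0.05 and 0.12 in size. Hepatocyte markers such as albumin averaged 10.69 to 11.37 on every array. Markers of stellate cells, endothelial cells, lymphocytes, red blood cells, skeletal muscle, brown fat and bile duct cells averaged 4.44 to 5.49. Single genes of these lists were brighter, such as Epcam of bile duct cells (mean 8.43), Acta2 of stellate cells (7.59) and Gzmb of lymphocytes (7.15). The 14 Kupffer cell and macrophage markers averaged 5.79 to 6.75 in DMSO, 5.48 to 7.27 in 10 µM and 5.58 to 6.21 in 100 µM, the value of 7.27 being biochip 23. Of the 14, 10 were lower at 10 µM and 12 at 100 µM with run in the model. Cd68, the brightest of them, was higher, with log2 changes of 1.17 and 1.18. No marker of these lists was called in any comparison.

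No carrier was called in either flutamide comparison or between the doses, where the background was also 0% of all genes. The members split almost evenly in direction, 20 higher and 19 lower at 10 µM and 19 higher and 20 lower at 100 µM. Their median log2 change was 0.003 at 10 µM, against -0.003 over all genes, and -0.011 at 100 µM, against 0.019 over all genes. At an unadjusted p under 0.05, 3 members (7.69%) stood at 10 µM against 7.65% of all genes, namely Slc25a5 and Slc25a15 lower and Slc25a2 higher. At 100 µM there were 4 (10.3%) against 6.85% of all genes, the same 3 genes and Slc25a4, which was lower. Between the doses there were 2 (5.13%), Slc25a4 and Slc25a51, both lower at 100 µM, against 4.98% of all genes. These shares were near those of all genes.

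The intervals show how large a change may have been missed, and they differed between members. The median 95% interval of a member reached 0.267 log2 units to either side of the estimate at 10 µM and 0.295 at 100 µM. Some were far wider, such as those of Slc25a24 and Slc25a40. Changes of opposite sign in the 2 runs, as for Slc25a24, are combined in these estimates. Estimates lay within 0.5 log2 units of 0 for 38 of 39 members at 10 µM, the exception being Slc25a24, and for 36 of 39 at 100 µM, the exceptions being Slc25a4, Slc25a15 and Slc25a24.

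**Figure D1:**
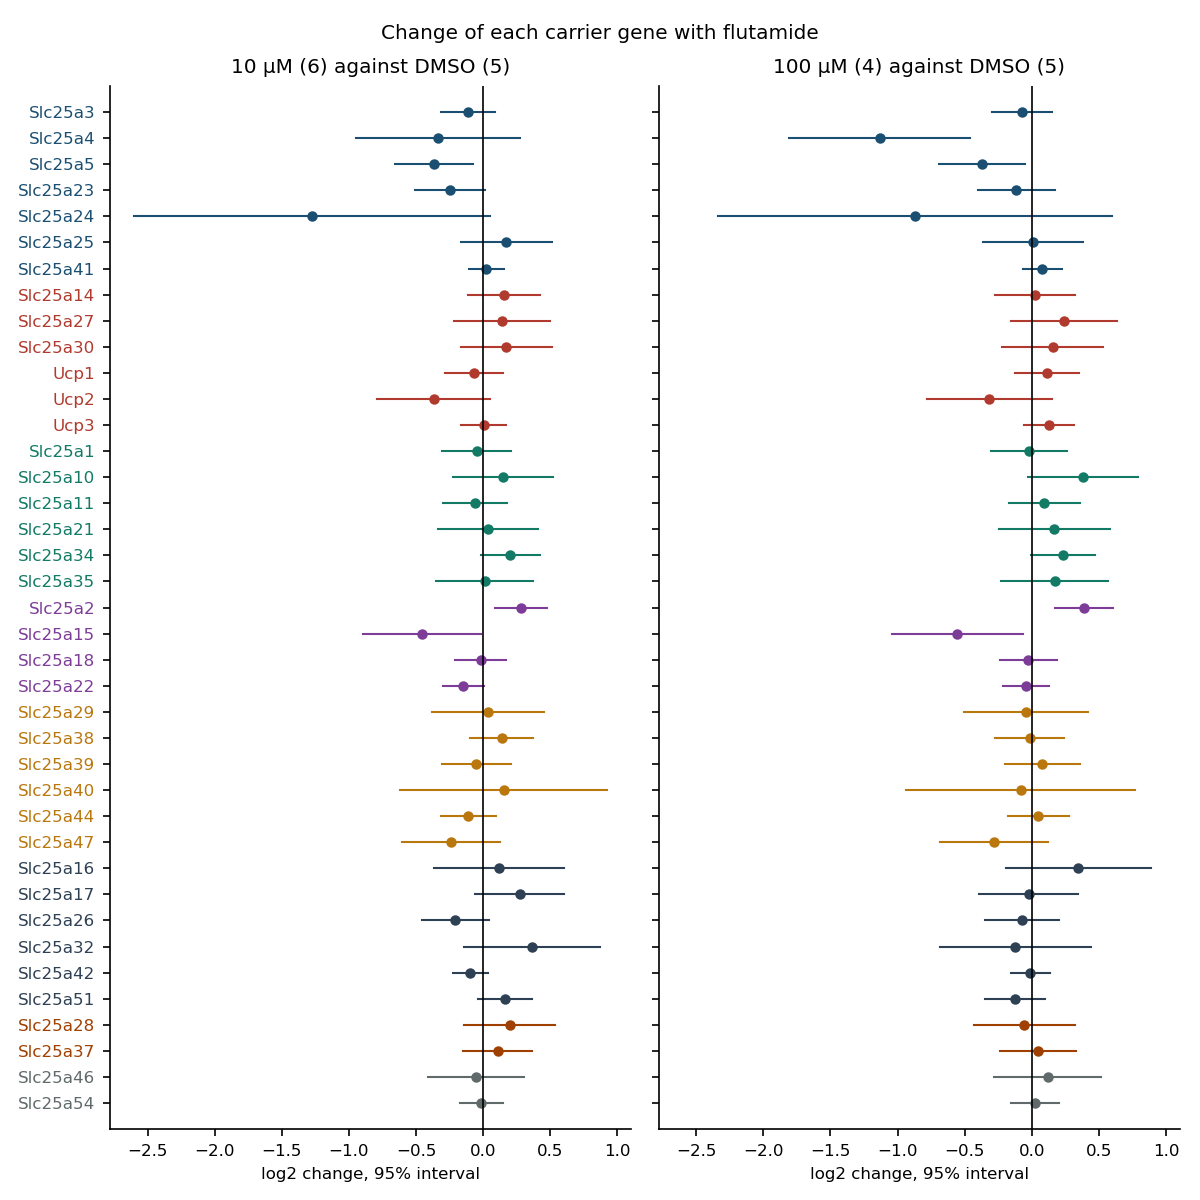
Log2 change of the 39 carrier genes at 10 µM (left) and 100 µM flutamide (right) against DMSO, with run in the model; points are estimates, bars 95% intervals and colours the role groups. Most points lie near 0, and the widest intervals belong to Slc25a24, with Slc25a4 the lowest at 100 µM.

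The carriers spanned a wide range of levels in DMSO hepatocytes. For scale, 47 genes of other tissues, such as prolactin and muscle creatine kinase, had DMSO means of 3.50 to 6.54 with a median of 4.92. Of the 39 members, 22 had a DMSO mean above that whole range, 12 lay between its median and its top, and 5 lay at or below its median. The 5 were Slc25a21, an oxodicarboxylate carrier, Slc25a35, Slc25a54, and Ucp1 and Ucp3, the uncoupling proteins of brown fat and muscle. Slc25a42 and Slc25a22 were only just above the range, at 6.59 and 6.62. By means over all 15 arrays these genes fell inside it, and 20 members lay above. Examples above the range were Slc25a3 (10.58 ± 0.29, SD, n = 5), Slc25a5 (10.05 ± 0.31) and Slc25a11 (9.01 ± 0.13), which carry phosphate, ADP/ATP and oxoglutarate. No detection call was used, so a level inside the range of the other tissues' genes does not show that the gene is silent.

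**Figure D2:**
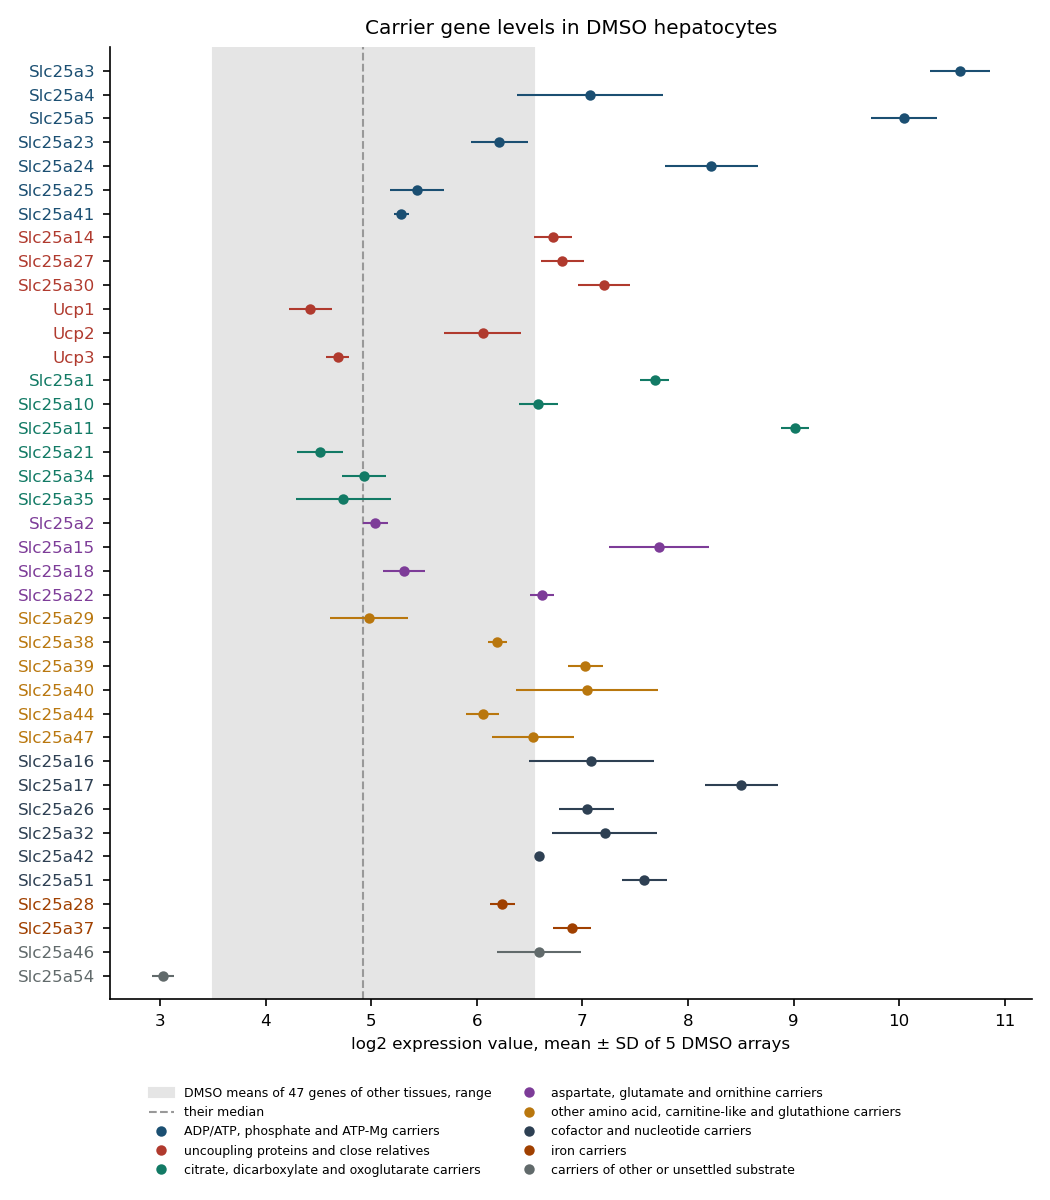
Mean log2 value ± SD of each carrier gene over the 5 DMSO arrays, coloured by role; the grey band is the range and the dashed line the median of the DMSO means of 47 genes of other tissues. The points of 22 genes lie to the right of the band, and those of Ucp1, Ucp3, Slc25a21, Slc25a35 and Slc25a54 at or left of the dashed line.

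The ADP/ATP, phosphate and ATP-Mg carriers move adenine nucleotides and phosphate for ATP synthesis. Of the 7 measured, 5 had lower values at 10 µM and 5 at 100 µM, with median changes of -0.25 and -0.12, and none was called. Within run 1, 4 and 3 were lower at the 2 doses, with medians of -0.02 and 0.03. Within run 2, 5 were lower at each dose, with medians of -0.30 and -0.24. The promoters of the 3 whose results are described most closely are shown for their layout, as the 250 bases before the annotated start on the plus strand, from RefSeq with build GRCr8. Slc25a4 lies at chr16:52805271-52805520, Slc25a5 at chrX:120897366-120897615 and Slc25a24 at chr2:199449175-199449424. Capitals mark matches on either strand to the letters of a TATA box (TATAA), of a CCAAT box (CCAAT) and of a GC box (GGGCGG).
Slc25a4: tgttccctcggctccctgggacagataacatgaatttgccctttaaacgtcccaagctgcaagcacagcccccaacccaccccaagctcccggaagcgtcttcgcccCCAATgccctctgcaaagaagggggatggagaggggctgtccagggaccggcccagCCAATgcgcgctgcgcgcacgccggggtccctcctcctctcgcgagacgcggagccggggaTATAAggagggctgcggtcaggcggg
Slc25a5: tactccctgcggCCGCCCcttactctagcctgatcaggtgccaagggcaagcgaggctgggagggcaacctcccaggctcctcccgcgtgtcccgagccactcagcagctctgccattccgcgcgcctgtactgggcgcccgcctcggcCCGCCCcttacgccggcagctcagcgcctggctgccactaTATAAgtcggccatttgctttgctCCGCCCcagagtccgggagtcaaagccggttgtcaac
Slc25a24: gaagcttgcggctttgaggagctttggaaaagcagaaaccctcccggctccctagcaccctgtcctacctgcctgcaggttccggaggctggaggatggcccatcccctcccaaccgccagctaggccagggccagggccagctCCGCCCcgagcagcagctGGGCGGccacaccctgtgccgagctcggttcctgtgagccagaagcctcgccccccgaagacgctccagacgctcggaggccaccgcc
The Slc25a4 window held CCAAT at 143 and 87 bases and TATAA at 26 bases before the start. The Slc25a5 window held GGGCGG at 238, 101 and 37 bases and TATAA at 61 bases before it, and the Slc25a24 window only GGGCGG, at 106 and 88 bases. A match is a description of these letters and not evidence of a bound factor.

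The table of promoters held 34 of the 39 members. Of these 34 windows, 19 (55.9%) held GGGCGG against 32.4% of all 27457 promoter windows of the same length, and 18 (52.9%) held CCAAT against 34.3%. TATAA occurred in 5 (14.7%) against 24.1%, those of Slc25a4, Slc25a5, Slc25a38, Slc25a51 and Ucp1. TGACG, the partial site of the cAMP response element, occurred in 8 windows against 19.0% of all, CACGTG, an E-box, in 2 against 5.79%, and AAGGTCA, a single site of the estrogen-related receptors, in Slc25a34 alone against 3.77%. GCGCATGC, the core of the NRF1 site, was in none of the member windows and in 2.38% of all. These shares were not tested, and both strands were searched for each motif.

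Slc25a4 encodes ADP/ATP carrier ANT1, the isoform of heart and muscle. Its values in DMSO were 6.57 and 6.19 in run 1 and 7.80, 7.13 and 7.67 in run 2. At 100 µM they were 5.09 and 5.93 in run 1 and 6.11 and 6.19 in run 2. The other 3 of the 100 µM arrays lay below every DMSO array, and the highest met the lowest DMSO array, both rounding to 6.19. The 10 µM arrays ran from 5.66 over a median of 6.25 to 8.30, across the whole DMSO range. The log2 change was -1.13 at 100 µM (SE 0.31, 95% interval -1.81 to -0.46, limma adjusted p = 0.628), and it was lower in both runs, by -0.87 within run 1 and -1.38 within run 2. At 10 µM it was -0.34 (interval -0.95 to 0.27), and between the doses -0.79 at 100 µM against 10 µM (SE 0.30, adjusted p = 0.930). Without biochips 15, 23 and 24 the changes were -0.76 at 10 µM and -1.04 at 100 µM, and the difference between the doses was -0.28. Leaving out 10 µM biochip 25 alone gave -0.15 at 10 µM.

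Slc25a5 encodes ANT2, the ADP/ATP carrier of proliferating and many other cells and a major isoform of rodent liver. DMSO arrays read 9.67 and 9.76 in run 1 and 10.19, 10.35 and 10.26 in run 2, and 100 µM arrays 9.08 and 9.60 in run 1 and 10.06 and 9.81 in run 2. The 10 µM arrays had a lowest value of 9.37, a median of 9.69 and a highest of 9.85. Within run 2 every flutamide array was below every DMSO array, while in run 1 the 10 µM range of 9.49 to 9.76 met the DMSO values. The log2 change was -0.37 at each dose (SE 0.14, adjusted p = 0.525 at 10 µM, and SE 0.15, adjusted p = 0.698 at 100 µM, limma). At 10 µM it was -0.09 within run 1 and -0.60 within run 2, and at 100 µM -0.38 and -0.33. The 100 µM value of run 1 was -0.12 without biochip 15, and that of both runs -0.24. Without biochips 15, 23 and 24 the changes were -0.23 at 10 µM and -0.25 at 100 µM. Slc25a4 and Slc25a5 are close paralogs, and binding of one transcript to the other's probes was not tested.

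Slc25a3, the phosphate carrier, lay on different sides of DMSO in the runs. Its DMSO values were 10.22 and 10.33 in run 1 and 10.70, 10.88 and 10.75 in run 2. Flutamide arrays lay between 10.32 and 10.69, all above the DMSO arrays in run 1 and all below them in run 2. At 10 µM the nearest arrays were almost level with DMSO. They read 10.3364 against 10.3324 in run 1, and 10.6917 against 10.6955 in run 2. The change at 10 µM was 0.13 within run 1 (interval -0.10 to 0.36) and -0.30 within run 2 (-0.60 to -0.01), and -0.11 with both runs in the model.

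Slc25a24, a calcium-regulated carrier that exchanges ATP-Mg for phosphate, had the widest spread of all members. DMSO arrays read 7.47 and 8.26 in run 1 and 8.42, 8.33 and 8.62 in run 2. The 10 µM arrays read 8.46, 8.70 and 7.63 in run 1 and 4.09, 5.90 and 7.56 in run 2, and the 100 µM arrays 7.94 and 8.19 in run 1 and 7.67 and 6.04 in run 2. The 3 lowest values were all from flutamide arrays of run 2, and the lowest, 4.09, was biochip 23, the array that stood farthest apart. The change at 10 µM was -1.28 (interval -2.60 to 0.05, adjusted p = 0.664, limma), made of 0.39 within run 1 and -2.61 within run 2. It was -0.71 without biochip 23 and -0.23 without biochips 15, 23 and 24. At 100 µM it was -0.87 (interval -2.34 to 0.59), of which 0.20 within run 1 and -1.60 within run 2, and it was -0.54 without 100 µM biochip 27 and -1.31 without DMSO biochip 10. The difference between the doses was 0.41 with all arrays and -0.67 without biochips 15, 23 and 24.

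Slc25a24 has a further probe set of lower mean, which read 5.02 and 4.95 in the DMSO arrays of run 1 and 5.61, 5.76 and 5.35 in those of run 2. The 10 µM arrays read 4.77, 5.15 and 4.43 in run 1 and 4.58, 4.63 and 4.86 in run 2, and the 100 µM arrays 4.90 and 5.22, then 4.73 and 4.57. On this probe set too every flutamide array of run 2 lay below the DMSO arrays of that run. Its changes were smaller, -0.60 at 10 µM (SE 0.17, limma adjusted p = 0.398) and -0.48 at 100 µM (SE 0.19, adjusted p = 0.694). All of its readings lay inside the range of the genes of other tissues given above, and this comparison was added after the data had been seen.

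**Figure D3:**
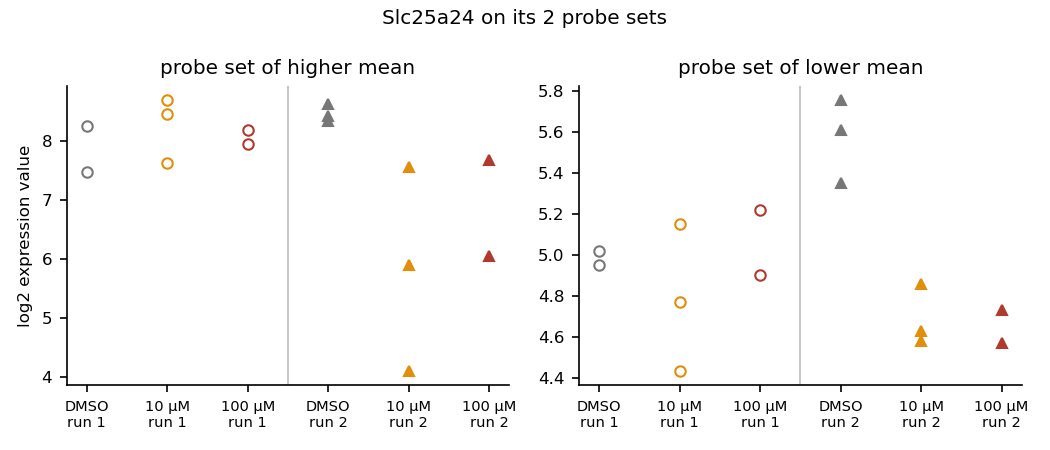
Log2 value of Slc25a24 on its 2 probe sets, by group and run; each point is 1 array, open circles run 1 and triangles run 2. In run 2 the flutamide arrays lie below the 3 DMSO arrays on both probe sets, while in run 1 the groups overlap.

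The other ATP-Mg carriers varied less. Slc25a23 had changes of -0.25 at 10 µM (interval -0.51 to 0.01) and -0.12 at 100 µM, and Slc25a41 ones of under 0.1 at both doses. Slc25a25, another calcium-regulated member, lay between 5.06 and 5.79 on 14 arrays and at 6.38 on biochip 23. Its changes were 0.17 at 10 µM (interval -0.17 to 0.51), or 0.02 without biochip 23, and 0.01 at 100 µM.

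Among the 6 uncoupling proteins and close relatives, 4 had higher values at 10 µM and 5 at 100 µM, with no call and none at an unadjusted p under 0.05. Ucp2, which is found in macrophages and in stressed hepatocytes, was the one with lower values at both doses, by -0.37 at 10 µM (interval -0.79 to 0.05) and -0.32 at 100 µM (interval -0.78 to 0.15). Without DMSO biochip 21 these were -0.21 and -0.16. At 10 µM the Ucp2 change was -0.26 within run 1 and -0.43 within run 2, and at 100 µM 0.003 and -0.59. Leaving out 10 µM biochip 14, the Ucp2 value of run 1 at 10 µM was 0.03. Its DMSO values were 5.98 and 5.86 in run 1 and 5.95, 6.69 and 5.80 in run 2, its 100 µM values 5.82 and 6.02, then 5.53 and 5.59, and its 10 µM values ran from 5.07 over a median of 5.66 to 6.18. The highest value was that of DMSO biochip 21, where the macrophage markers Vsig4 (8.60) and Cd163 (8.00) were higher than on the other DMSO arrays. Not all macrophage markers were: Cd68 read 7.28 there, against 10.15 and 9.87 on DMSO biochips 10 and 11. Ptprc read 4.89 there, against 5.08 on DMSO biochip 22. On biochip 23, where Vsig4 and Cd163 read 8.95 and 8.51, Ucp2 read 5.60, and the part of macrophage markers in its values was not tested. Slc25a27 (UCP4) had a log2 change of 0.24 at 100 µM (interval -0.16 to 0.63), with 0.56 within run 2 and -0.13 within run 1, and one of 0.09 without 100 µM biochip 27 and 0.43 without biochip 16. Ucp1 read 4.26 to 4.76 in DMSO and 4.33 to 4.39 at 10 µM, and 4.85 on biochip 15 against 4.43 to 4.44 on the other 100 µM arrays.

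The 6 citrate, dicarboxylate and oxoglutarate carriers export carbon for lipid and glucose synthesis and serve the redox shuttles. At 100 µM 5 of them had higher values, with a median change of 0.17, and at 10 µM 4 did, with a median of 0.02, and none was called. Slc25a10, the dicarboxylate carrier, read 6.51, 6.80, 6.66, 6.30 and 6.64 in DMSO and 7.40, 6.52, 7.14 and 6.79 at 100 µM. The ranges overlapped, and the change was 0.38 (interval -0.03 to 0.79, adjusted p = 0.754, limma) with 0.31 within run 1 and 0.43 within run 2. Without biochip 15, the 100 µM array that read 7.40, it was 0.23, and the run 1 value was -0.13. Slc25a34 had log2 changes of 0.20 at 10 µM (interval -0.02 to 0.42) and 0.23 at 100 µM (interval -0.01 to 0.47), at levels of 4.66 to 5.33 that lie amid the genes of other tissues. Slc25a1, the citrate carrier that supplies acetyl units to lipogenesis, had log2 changes of -0.05 at 10 µM (interval -0.30 to 0.21) and -0.02 at 100 µM (interval -0.30 to 0.26). Slc25a11, the oxoglutarate carrier of the malate-aspartate shuttle, had ones of -0.06 and 0.09. Within run 1 its 100 µM arrays, 9.21 and 9.31, lay above the DMSO arrays, 8.87 and 8.92, while in run 2 they read 9.20 and 8.71 against 8.97 to 9.16.

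The aspartate, glutamate and ornithine carriers held Slc25a15 and Slc25a2, both at an unadjusted p under 0.05 at each dose, with differences of opposite sign. Both encode ornithine carriers, Slc25a15 being ORC1, which brings ornithine into the matrix for the urea cycle. Slc25a15 read 7.15 and 7.41 in the DMSO arrays of run 1 and 7.95, 8.37 and 7.77 in those of run 2. At 100 µM it read 6.88 and 7.72 in run 1 and 7.28 and 6.75 in run 2, and at 10 µM between 7.04 and 7.54 with a median of 7.25. The groups overlapped in run 1, and in run 2 every flutamide array was below every DMSO array. The change was -0.46 at 10 µM (interval -0.90 to -0.01, adjusted p = 0.640, limma) and -0.56 at 100 µM (interval -1.05 to -0.07, adjusted p = 0.708), or -0.37 there without biochip 27. Within run 1 it was -0.002 and 0.02, and within run 2 -0.79 (adjusted p = 0.186) and -1.01 (adjusted p = 0.373).

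Slc25a2 had the lowest p of all members at both doses. Its values were 5.10, 5.03, 4.99, 4.88 and 5.19 in DMSO and 5.41, 5.33, 5.54 and 5.39 at 100 µM, and at 10 µM ran from 5.10 over a median of 5.27 to 5.57. Every 100 µM array was above every DMSO array, which no other member showed (1 of 39, 2.56%, against 2.06% of all genes), and no member's 10 µM arrays were free of overlap with DMSO (0 of 39, against 0.634% of all genes). The changes were 0.28 at 10 µM (SE 0.09, limma adjusted p = 0.447) and 0.39 at 100 µM (SE 0.10, adjusted p = 0.510), higher within each run at both doses (0.15 and 0.38 at 10 µM, 0.30 and 0.45 at 100 µM). Without biochips 15, 23 and 24 they were 0.16 and 0.38. All of its readings lie inside the range of the genes of other tissues. Slc25a22, a glutamate carrier, had log2 changes of -0.15 at 10 µM (interval -0.30 to 0.005) and -0.04 at 100 µM.

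**Figure D4:**
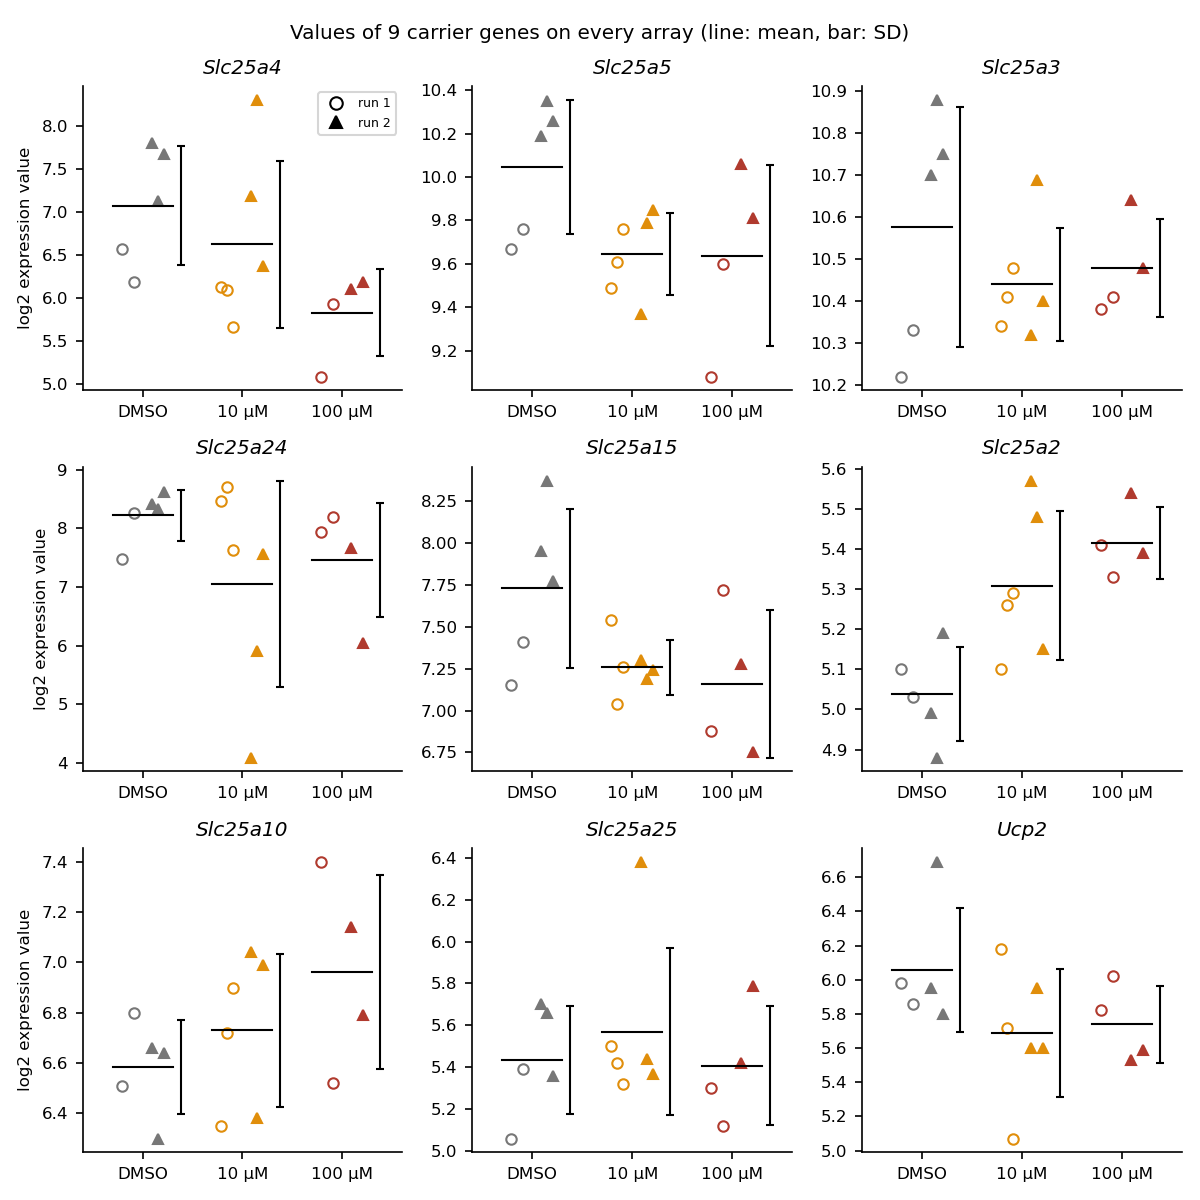
Log2 values of 9 carrier genes on every array by group, with open circles for run 1 and triangles for run 2; horizontal lines are group means and bars ± SD. Slc25a2 is the one gene whose 100 µM arrays all lie above its DMSO arrays, and for Slc25a4, Slc25a5, Slc25a3, Slc25a24 and Slc25a15 the DMSO triangles lie above the DMSO circles.

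The 6 carriers of other amino acids, of carnitine-like substrates and of glutathione had median changes of -0.01 at 10 µM and -0.03 at 100 µM, and none reached an unadjusted p under 0.05. Slc25a47, a liver-enriched carrier, had log2 changes of -0.24 (interval -0.60 to 0.13) and -0.28 (interval -0.69 to 0.12) with lower values within each run. Without DMSO biochip 11, which read 7.22, they were -0.08 and -0.12, and the run 1 values were 0.12 and 0.14. Slc25a39 and Slc25a40, linked to glutathione import, had log2 changes of -0.05 and 0.15 at 10 µM and of 0.08 and -0.08 at 100 µM. The Slc25a40 readings were wide, 6.03 to 7.71 in DMSO and 5.40 to 7.60 at 100 µM, with the lowest on biochip 15, and so was its interval at 100 µM, -0.94 to 0.77. Without biochip 15 the 100 µM value was 0.38, and without DMSO biochip 10 the 10 µM value was -0.09.

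The 6 cofactor and nucleotide carriers had a median change of 0.14 at 10 µM and -0.05 at 100 µM. Slc25a51, which carries NAD into mitochondria, read 7.65 to 7.85 at 10 µM and 7.34 to 7.58 at 100 µM, with 7.30 to 7.86 in DMSO spanning both. The difference of 100 µM from 10 µM was -0.29 (SE 0.10, limma adjusted p = 0.930), and its probe set of lowest mean gave -0.38. Slc25a32, a folate or flavin carrier, read 7.22 to 7.85 at 10 µM with a median of 7.56, and 6.15, 6.91, 7.52 and 7.62 at 100 µM, against 6.62 to 7.78 in DMSO. Its changes were 0.36 at 10 µM (interval -0.15 to 0.87), the largest positive change of a member there, and -0.12 at 100 µM, or 0.12 without biochip 15. Without DMSO biochip 20 the 10 µM value was 0.22. Slc25a17, the peroxisomal member of the family, had log2 changes of 0.27 (interval -0.06 to 0.60) and -0.02, and Slc25a16 ones of 0.12 and 0.35 (interval -0.19 to 0.88). On biochip 15 Slc25a16 read 8.32 against 7.15 to 7.32 on the other 100 µM arrays, and without it the 100 µM value was 0.18. For Slc25a17 the 10 µM value was 0.15 without DMSO biochip 22. Slc25a42, a coenzyme A carrier, was among the steadiest, at 6.35 to 6.69 on all 15 arrays, with changes of -0.10 (interval -0.23 to 0.04) and -0.01 (interval -0.16 to 0.13).

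The iron carriers Slc25a28 and Slc25a37, the mitoferrins, had log2 changes of 0.20 and 0.11 at 10 µM (0.36 for Slc25a28 without biochips 15, 23 and 24) and of -0.06 and 0.05 at 100 µM. Slc25a46, an outer-membrane protein of the family, had ones of -0.05 and 0.12. Slc25a54 read 2.87 to 3.20 on all arrays.

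The runs also differed. Comparing run 2 with run 1 across all groups, 28 of 39 members were higher and 11 lower, with a median of 0.08 against 0.002 over all genes. None was called, against 0.545% of all genes (79 genes), and 7 (17.9%) stood at an unadjusted p under 0.05, against 11% of all genes. These were Slc25a3, Slc25a4, Slc25a5, Slc25a23, Slc25a25 and Slc25a37, higher in run 2, and Slc25a16, lower. Slc25a4 had the lowest p, with a difference of 1.09 (SE 0.24, interval 0.57 to 1.61, limma adjusted p = 0.0654). It was called without 10 µM biochip 24 (0.89, adjusted p = 0.0388) or without 10 µM biochip 25 (1.23, adjusted p = 0.0339), and was 0.71 without biochips 15, 23 and 24. Slc25a5 differed by 0.36 (adjusted p = 0.225), Slc25a3 by 0.23 (adjusted p = 0.281) and Slc25a16 by -0.68 (adjusted p = 0.161), or -0.44 without biochips 15, 23 and 24. The most negative difference was that of Slc25a24, at -1.12, although its DMSO arrays taken alone were higher in run 2. It was -0.69 without biochip 23 and -0.27 without biochips 15, 23 and 24. Slc25a32 differed by 0.41, Slc25a40 by 0.38 (0.12 without biochip 15), Slc25a47 by -0.28 and Slc25a17 by -0.20.

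Within DMSO alone, 13 of 39 members had all 3 run 2 arrays above both run 1 arrays, a larger share than the 15.6% of all genes in that direction. They were Slc25a3, Slc25a4, Slc25a5, Slc25a11, Slc25a15, Slc25a22, Slc25a23, Slc25a24, Slc25a28, Slc25a30, Slc25a37, Slc25a39 and Slc25a46. Counting Slc25a1 and Slc25a34, which were lower in run 2, 15 of 39 (38.5%) did not overlap, against 30.4% of all genes. The 14 Kupffer cell and macrophage markers averaged 5.82 to 6.35 in the DMSO arrays of run 1 and 5.79 to 6.75 in those of run 2. Comparing run 2 with run 1 across all groups, 12 of the 14 were higher and 2 lower, with a median of 0.19. Cd68, named after its values were seen, went the other way, with a difference of -1.42 (limma adjusted p = 0.0708). The part of these markers in the carrier values was not tested.

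The comparisons of each dose with DMSO inside run 2 share those 3 DMSO arrays. At 10 µM 8 members had all arrays below DMSO and none above (20.5% in either direction, against 16.3% of all genes, of which 8.53% lower): Slc25a3, Slc25a5, Slc25a15, Slc25a22, Slc25a23, Slc25a24, Slc25a42 and Slc25a44. At 100 µM 8 of 39 were below, namely Slc25a3, Slc25a4, Slc25a5, Slc25a15, Slc25a23, Slc25a24, Slc25a47 and Ucp2, against 14.4% of all genes lower, and 5 were above, namely Slc25a2, Slc25a10, Slc25a27, Slc25a28 and Slc25a34. Together these 13 were 33.3% of members, against 29.3% of all genes. Inside run 1, 7 members (17.9%) did not overlap at 10 µM, against 25.5%, and 11 (28.2%) at 100 µM, against 30.6%. Slc25a3 was below DMSO in run 2 at both doses and above it in run 1 at both, though at 10 µM its nearest arrays were almost level with DMSO.

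Fits within each run gave 0 members at an unadjusted p under 0.05 at 10 µM in run 1, against 5.33% of all genes, and 6 (15.4%) in run 2, against 11.7%. These 6 were Slc25a2, Slc25a3, Slc25a5, Slc25a15, Slc25a23 and Slc25a24. At 100 µM there were 3 (7.69%) in run 1, against 6.27%, namely Slc25a2, Slc25a4 and Slc25a11. In run 2 there were 5 (12.8%), against 6.74%, namely Slc25a2, Slc25a4, Slc25a15, Slc25a27 and Slc25a34. None was called in these fits, where the background was 0% in run 1 at both doses and, in run 2, 0.0483% at 10 µM and 0.00689% at 100 µM.

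The difference of the flutamide change between the runs was tested as an interaction. At 10 µM no member was called, against 0.0414% of all genes (6 genes), and 5 (12.8%) stood at an unadjusted p under 0.05, against 10.2% of all genes. These were Slc25a3, Slc25a15, Slc25a24, Slc25a39 and Slc25a46, each with the more negative change in run 2, and the lowest p was that of Slc25a24 (difference -3.01, SE 1.03, limma adjusted p = 0.381). At 100 µM none was called, against 0.00689% of all genes (1 gene), and 3 (7.69%) stood at an unadjusted p under 0.05, against 6.08%. They were Slc25a11 and Slc25a15, more negative in run 2, and Slc25a28, more positive, with Slc25a15 lowest in p (difference -1.04, SE 0.38, adjusted p = 0.787).

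**Figure D5:**
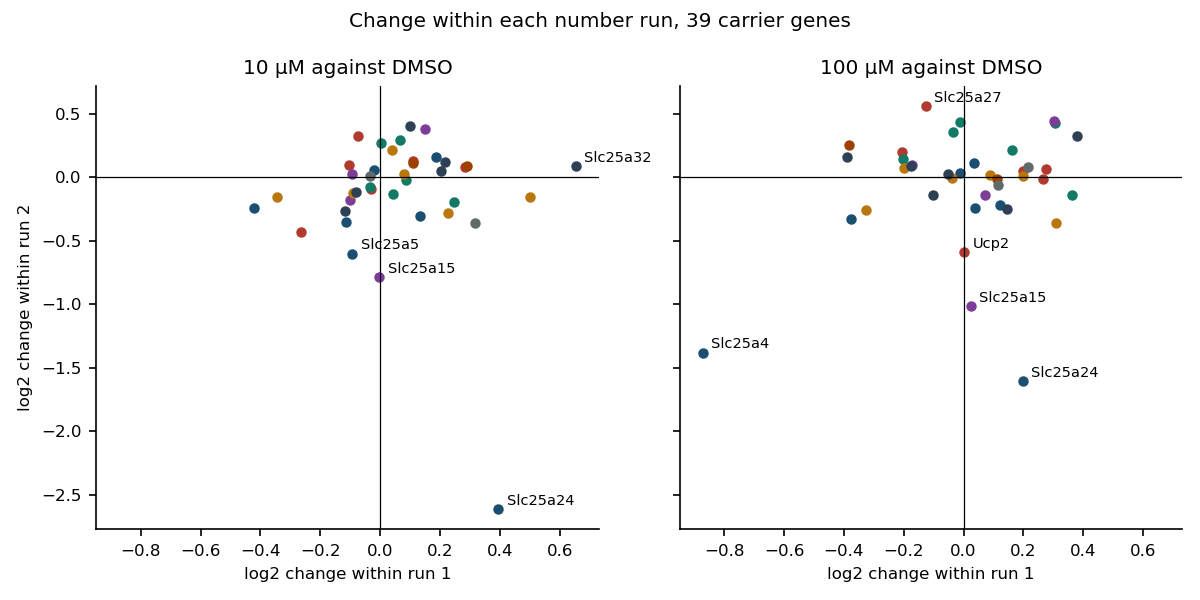
Log2 change of each of 39 carrier genes against DMSO within run 1 (horizontal axis) and within run 2 (vertical axis), at 10 µM (left) and 100 µM (right); colours are role groups and lines mark 0. Slc25a24 lies far below 0 in run 2 only, at -2.61 and -1.60, and Slc25a4 at 100 µM is below 0 in both runs.

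Genes that work beside the carriers also had no call in the flutamide comparisons, between the doses or between the runs. For scale, 50.9% of all genes were lower at 10 µM and 44.3% at 100 µM, with medians of -0.003 and 0.019. Among 16 genes of carrier import, the translocases and small chaperones that insert carriers into the inner membrane, 10 were lower at 10 µM and 11 at 100 µM, with medians of -0.07 and -0.06. The lowest p belonged to Tomm40, the channel of the outer membrane, at 10 µM (-0.30, SE 0.12) and to Timm8a1 at 100 µM (-0.29, SE 0.13). Of these 16 genes, 10 and 9 were lower at the 2 doses within run 1, and 11 and 15 within run 2. Of 19 other mitochondrial transporters and channels, 14 were lower at 10 µM and 15 at 100 µM, with a median of -0.09 at each dose. Within run 1, 10 of the 19 were lower at each dose, with medians of -0.004 and -0.04. Within run 2, 14 and 16 were lower, with medians of -0.15 and -0.11. Mcu, the pore of the calcium uniporter, had log2 changes of -0.70 at 10 µM (SE 0.27, limma adjusted p = 0.540) and -0.56 at 100 µM. For Abcb6, a porphyrin transporter, the difference of the 10 µM change between the runs was -1.77 (SE 0.33, limma adjusted p = 0.124), with the more negative change in run 2. Leaving out 10 µM biochip 25 made it a call (-1.90, adjusted p = 0.0370), as did weighting arrays by quality (-1.53, adjusted p = 0.0471).

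Of 8 measured enzymes of the malate-aspartate and glycerol phosphate shuttles and citrate metabolism, 6 were lower at 10 µM and 7 at 100 µM, with medians of -0.05 and -0.12. Within run 1, 2 and 4 of the 8 were lower, with medians of 0.03 and 0.001. Within run 2, 6 and 8 were lower, with medians of -0.17 and -0.19. Gpd1, the cytosolic glycerol phosphate dehydrogenase, had a log2 change of -0.38 at 100 µM (SE 0.20, limma adjusted p = 0.765). Of 9 regulators of mitochondrial gene expression, 5 were higher at 10 µM and 3 at 100 µM. Within run 1, 5 of the 9 were higher at each dose, and within run 2, 4 and 2. Ppargc1a, a coactivator of mitochondrial biogenesis and gluconeogenesis, had log2 changes of -0.88 at 100 µM (SE 0.29, adjusted p = 0.649) and -0.26 at 10 µM. Ppara, the fatty acid receptor, had ones of -0.63 at 100 µM (SE 0.30, adjusted p = 0.728) and 0.02 at 10 µM.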

How the data were processed

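Total RNA (100 ng a biochip) was labelled by a whole-transcript protocol for Affymetrix arrays, per the labels' protocols. The values are log2 expression values in 1 deposited table, and the submitters' processing notes name RMA and Partek, with versions and settings not given in the sources used here. Values were not normalized further. Of 29214 probe sets, 15310 had 1 gene symbol in the platform annotation, and 15279 of these matched RefSeq (GRCr8) by gene identifier. Per gene the probe set of highest mean over the 15 arrays was used.

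All 14506 genes were fitted with limma 3.58.1 in R 4.3.3 (lmFit, eBayes, group and run as terms, 11 residual degrees of freedom before moderation), with Benjamini-Hochberg adjustment over all genes. An interaction of group and run, and fits within each run, were added. The code was tested on simulated data. Arrays have no read depth, so their number limits the precision.

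Members and lists were chosen with earlier results of these data known. Named are a fixed set and, in each comparison, the 4 largest changes in each direction. Other genes were named after their values were seen. Alternatives covered run, normalization, scaling, dim genes (mean under 5), probe sets, array quality weights and leaving out arrays. Differences of means within a run with 1 array left out were chosen after seeing the data.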

Additional observations from a re-analysis of the deposited data

Results flagged for a closer look

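In 13 of 117 sets of member and group, 1 array lay far from the rest of its group by Dixon's ratio of gap to range, where chance gives about 1 in 20, or 5.85. Of the 13, 5 came from 100 µM biochip 15, and 2 each from DMSO biochip 21 and 10 µM biochip 23. On biochip 15, Slc25a14 read 6.44 against 6.82 to 6.86 on the other 100 µM arrays. There Slc25a16 read 8.32 against 7.15 to 7.32, and Slc25a18, a glutamate carrier, read 5.20 against 5.32 on all others. Those other Slc25a18 values were equal, so the ratio was 1 whatever the gap, here 0.12. That case cannot be set against the chance number. Slc25a38, a glycine carrier, read 6.06 on biochip 15 against 6.20 to 6.21, and Ucp1 read 4.85 against 4.43 to 4.44.

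On biochip 23, Slc25a1 read 7.14 against 7.65 to 7.88 on the other 10 µM arrays, and Slc25a25 read 6.38 against 5.32 to 5.50. On biochip 12 Slc25a23 read 5.40 against 5.88 to 6.13, and on biochip 24 Slc25a38 read 6.87 against 6.19 to 6.23. Among DMSO arrays, biochip 21 read 7.50 for Slc25a26 against 6.89 to 7.02 and 6.69 for Ucp2 against 5.80 to 5.98. Biochip 20 read 5.63 for Slc25a29 against 4.72 to 4.91, and biochip 11 read 7.22 for Slc25a47 against 6.29 to 6.43.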

How the results depend on the processing

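No member was called in a flutamide comparison or an interaction under any alternative run; in the comparison of runs the count was 0 to 1 on leaving out single arrays. Members at an unadjusted p under 0.05 varied more. For 10 µM against DMSO the count of 3 became 0 in run 1 alone, 6 in run 2 alone, 5 with all probe sets averaged and 7 with quality weights. Leaving out single arrays gave 2 to 6, with 6 without DMSO biochip 10 or 10 µM biochip 13 and 5 without 10 µM biochip 12 or 24. For 100 µM the count of 4 ranged from 3 to 7, with 7 without 100 µM biochip 16. For 100 µM against 10 µM the count of 2 became 6 in run 1 alone, and 1 in run 2 alone, without run in the model, with quality weights, or without biochips 15, 23 and 24; single arrays gave 1 to 4 (1 without biochip 15, 4 without 13 or 27). For the runs, 7 became 11 without biochips 15, 23 and 24, and 6 to 11 without single arrays (11 without biochip 13). With quality weights 1 other mitochondrial gene, Micu2, was called between runs (-0.31, adjusted p = 0.0420). The 5 of the 10 µM interaction became 2 with renewed quantile normalization or without the 3 biochips, and 1 to 6 without single arrays (1 without biochip 10, 2 without 14 or 21, 3 without 11 or 23). The 3 of the 100 µM interaction became 5 without the 3 biochips, and 0 to 6 without single arrays (0 without 10, 16 or 27, 1 without 13 or 21, 5 without 24, 6 without 23). In run 1 alone 8 members turned direction at 10 µM and 13 at 100 µM, and in run 2 alone 5 and 11. Those at 10 µM in run 1 included Slc25a24 (to 0.39) and Slc25a3 (to 0.13). Leaving out single arrays turned 12 members at 10 µM and 16 at 100 µM, with changes of at most 0.15 and 0.12 in size. The cause of these shifts was not tested. No paired analysis was possible because the groups share no biochip numbers. Within runs a group holds 2 or 3 arrays.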
